A study of Mus musculus with 12 samples.

Results

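Cryab and 9 genes of the cytosolic heat shock system were followed in subcutaneous white adipose tissue (scWAT) of mice kept warm or cold. The 10 genes are Cryab, Hspb1, Hspb6, Hspb7, Hspb8, Hspa1a, Hspa1b, Hsph1, Hspa8 and Hsf1. They are 10 of 55401 genes counted, and all 10 were among the 16540 with enough counts to be tested. Cryab was selected on its measured fall by cold in Jmjd1a HY/HY mice, where few genes fell, and the others were chosen by function as its relatives. That contrast is therefore given without a test for every one of the 10 genes, and the other contrasts that use the same Jmjd1a HY/HY libraries are given without a test for Cryab.

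RNA-seq was done on 12 libraries in 4 groups of 3: wild-type (Jmjd1a +/+) and mutant (Jmjd1a HY/HY) animals, each group held either warm at 30°C or cold at 8°C. The HY allele is a germline knock-in made in C57BL/6J eggs that encodes JMJD1A, an eraser of histone H3K9 methylation, with a substitution (H1122Y) that inactivates the enzyme in every tissue. Per the study's methods the mice were females aged 16 weeks, the mutants came from 1 of the knock-in lines, and all were caged singly at 30°C for 1 week before 1 week at the final temperature. The labels do not say that the 3 libraries of a group came from separate mice, so the p-values measure only the spread between libraries, which may be technical, and a count per gene cannot show a base substitution.

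When proteins lose their shape, molecular chaperones keep them from clumping and help them refold. Small heat shock proteins, the family of Cryab and the Hspb genes, hold unfolded proteins without using ATP. The HSP70 proteins Hspa1a, Hspa1b and Hspa8 then bind and release them in cycles driven by ATP, and Hsph1, of the HSP110 family, helps HSP70 to exchange its nucleotide. Hsf1 is the transcription factor that switches on the inducible members under proteotoxic stress, by binding repeats of the unit nGAAn in alternating orientation. Cryab is best known from the lens, heart and skeletal muscle. In adipose tissue, cold turns part of the fat cells into beige cells rich in mitochondria that burn fuel to make heat.

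RefSeq promoters (build GRCm38.p6, which is mm10) matched 7 of the 10 genes, and the 250 bases before the start were searched on both strands for pairs of inverted units, GAANNTTC and TTCNNGAA, and for runs of 3 such units. Cryab, Hspa8 and Hsf1 had no match and were not searched. The windows of Hspa1a and Hspa1b are shown because these genes are near copies that moved together, and that of Hspb1 because it held 2 pairs and its level was the steadiest of the 10. Hspa1a is at chr17:34972157-34972406 and Hspa1b at chr17:34959239-34959488, both on the minus strand, and Hspb1 is at chr5:135887669-135887918 on the plus strand. Capitals mark a pair of units.
Hspa1a: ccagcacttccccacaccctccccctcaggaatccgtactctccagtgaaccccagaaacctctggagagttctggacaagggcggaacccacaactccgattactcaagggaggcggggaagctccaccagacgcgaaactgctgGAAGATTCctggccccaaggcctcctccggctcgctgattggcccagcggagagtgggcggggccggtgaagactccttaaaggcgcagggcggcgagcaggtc
Hspa1b: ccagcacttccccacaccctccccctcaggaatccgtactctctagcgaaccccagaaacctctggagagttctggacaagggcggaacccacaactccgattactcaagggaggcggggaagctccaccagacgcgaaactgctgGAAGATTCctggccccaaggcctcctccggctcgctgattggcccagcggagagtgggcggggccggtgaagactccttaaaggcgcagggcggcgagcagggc
Hspb1: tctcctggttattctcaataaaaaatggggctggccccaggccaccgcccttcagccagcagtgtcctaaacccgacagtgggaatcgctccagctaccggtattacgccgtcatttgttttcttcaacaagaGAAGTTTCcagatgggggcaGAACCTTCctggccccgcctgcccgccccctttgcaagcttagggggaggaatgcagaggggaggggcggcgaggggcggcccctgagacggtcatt

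The windows of Hspa1a and Hspa1b were identical at 247 of 250 bases, and in both the pair began 104 bases before the start. In Hspb1 the pairs began 117 and 97 bases before the start. Hsph1 held 1 pair in each of its overlapping windows, Hspb6 held 1 in 1 of its windows, and Hspb7 and Hspb8 held none. A pair stood in 12.84% of the 32851 RefSeq promoter windows of this length, and a run of 3 units stood in 0.466% of them and in none of the windows of the 7 genes. A match is a description of letters and not of a bound site.

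Sense-strand counts per library ranged from 13592629 to 26352081. Levels are given as CPM, a gene's counts in proportion to a library size scaled by TMM, which evens out differences in composition between libraries. White adipocyte markers, 6 of 6 detected in every group, summed to 5846 to 15135 CPM. Thermogenic adipocyte markers such as Ucp1 summed to 65.2 to 233 CPM at 30°C in both genotypes. At 8°C they reached 8291 to 9189 CPM in wild-type mice and 516 to 1653 CPM in HY/HY mice. A pair of libraries stood apart. Wild-type replicate 2 at 30°C held 1791 CPM of skeletal muscle markers against 5.05 to 27.5 CPM in the others. HY/HY replicate 3 at 30°C held 591 CPM of mammary epithelium markers, the lowest of all, against 980 to 3969 CPM. Values without them stand beside the results they touch most.

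Cryab encodes alphaB-crystallin, a small heat shock protein that guards desmin and other filaments. Its level in wild-type mice was 53.2, 67.0 and 60.9 CPM at 30°C and 59.1, 55.4 and 73.9 CPM at 8°C. In HY/HY mice it was 127, 186 and 90.8 CPM at 30°C and 54.6, 44.5 and 54.0 CPM at 8°C. The 3 HY/HY libraries at 30°C stood above the other 9, and the other groups overlapped in the order of their means. The mean was 135 ± 48.3 CPM (SD, n = 3) in HY/HY mice at 30°C, 62.8 ± 9.81 CPM in cold wild-type mice, 60.4 ± 6.93 CPM in warm wild-type mice and 51.0 ± 5.65 CPM in cold HY/HY mice. The high values of Cryab thus lay in the warm mutant mice, while those of the cold mutant mice overlapped the warm wild-type mice and lay just below the cold ones.

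**Figure D1:**
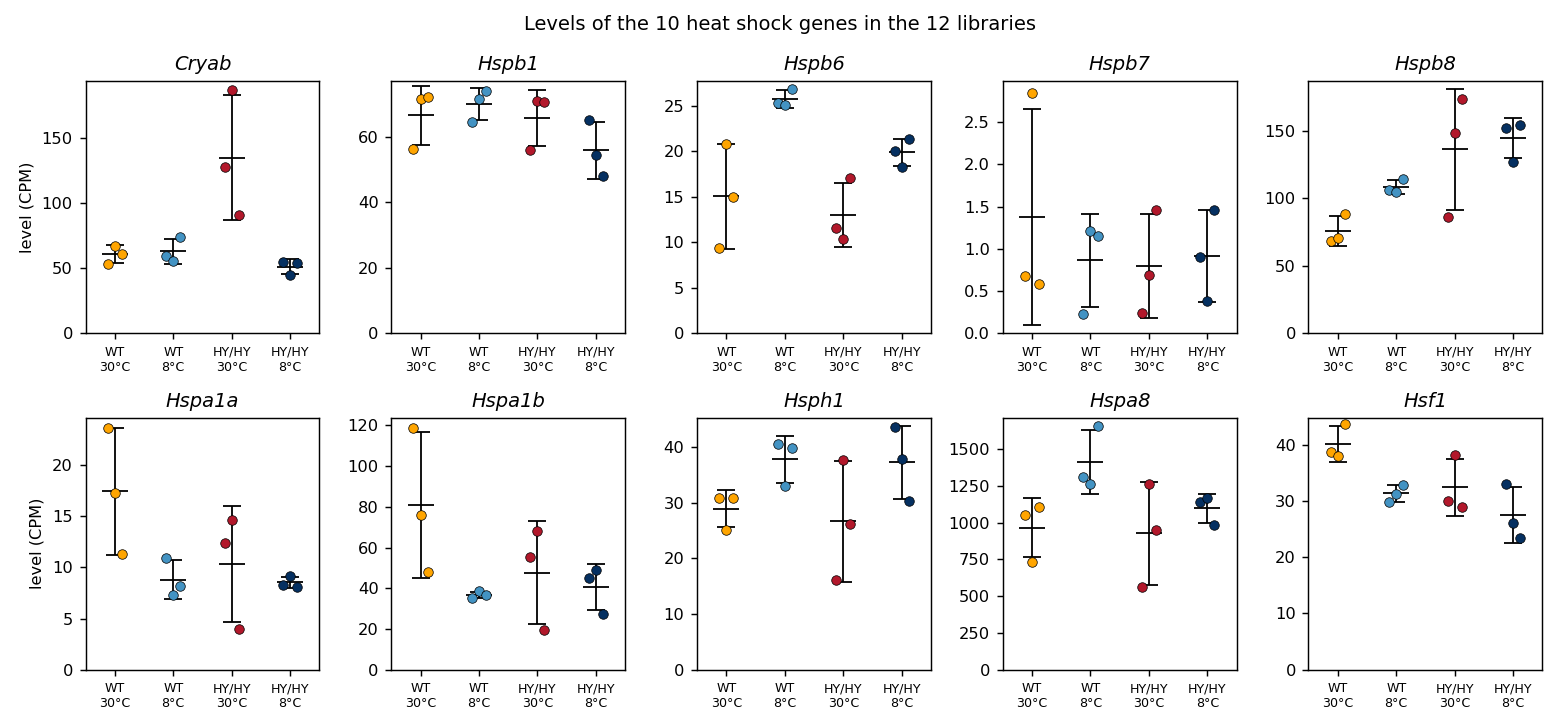
Level of each of the 10 genes in CPM (vertical axis, from 0 and with its own scale in each panel) in the 4 groups, with 1 point per library and bars for the mean ± SD of 3 libraries. Cryab in HY/HY mice at 30°C (90.8 to 186 CPM) lies above every other library of that panel (44.5 to 73.9 CPM).

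The fitted level of Cryab in HY/HY mice was 2.64-fold lower at 8°C than at 30°C (log2 fold change -1.40 ± 0.22 SE), which is the value that chose it. There, 41 of 16540 genes (0.248%) were called, 30 higher and 11 lower at 8°C, where a call needed a fold change past 1.5 upwards or 0.67 downwards besides an adjusted p under 0.05. Others among the 11 lower genes were Tbx2, a T-box transcription factor (-1.03), and Ly6h (-1.28), and the first gene outside the limit was ENSMUSG00000116305.1 (-1.64 ± 0.30). The fall of Cryab was -1.09 without HY/HY replicate 2 at 30°C, its highest library, and -1.62 without replicate 3, the library low in mammary epithelium markers.

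In wild-type mice, where the choice of Cryab played no part, its log2 fold change by cold was 0.06 ± 0.22 (95% interval -0.42 to 0.53; adjusted p = 0.88, edgeR's quasi-likelihood test). Without wild-type replicate 2 at 30°C it was 0.14 ± 0.25 (adjusted p = 0.74), and with library totals in place of TMM it turned to -0.28, where the median of all genes was also negative at -0.41. The adjusted p ranged from 0.375 to 0.957 over all alternatives. A change of Cryab by cold was thus not detectable in wild-type mice, within that interval.

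The remaining contrasts for Cryab follow from its selection and are given as descriptions. HY/HY mice had a fitted level 2.23-fold that of wild-type mice at 30°C (log2 1.16 ± 0.22), or 1.24 without wild-type replicate 2 and 0.85 without HY/HY replicate 2. At 8°C the difference was -0.30 ± 0.22. Subtracting the wild-type response to cold from the HY/HY response gave -1.46 ± 0.31, or -1.54 without wild-type replicate 2 and -1.15 without HY/HY replicate 2 at 30°C.

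Cryab RNA is also abundant in muscle, so markers of other cell types are set beside it. In a bulk sample, fewer cells of a type and less RNA per cell cannot be told apart. Skeletal muscle markers, 10 of 12 detected in HY/HY mice at 30°C and 8 of 12 at 8°C, summed to 5.23 to 21.4 CPM and 8.52 to 13.5 CPM there. Ckm and Pvalb were at 0 in all 3 HY/HY libraries at 8°C, and Pvalb and Myh4 were each at 0 in 2 libraries at 30°C. The library richest in skeletal muscle markers, at 1791 CPM, had 67.0 CPM of Cryab, against 53.2 and 60.9 CPM in the other warm wild-type libraries. Among the HY/HY libraries at 30°C, Cryab was highest where skeletal muscle markers were lowest. The part of skeletal muscle in the level of Cryab was not tested.

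Smooth muscle markers, 8 of 8 detected in every group, moved with Cryab within the warm mutant mice. Their summed levels there were 610, 698 and 404 CPM in replicates 1 to 3, the same order as Cryab. At 8°C they were 615, 575 and 582 CPM in HY/HY mice, where Cryab stood at 44.5 to 54.6 CPM. In wild-type mice they were 313 to 439 CPM at 30°C and 428 to 572 CPM at 8°C. Mammary epithelium markers, 9 of 10 detected with Wap at 0 in all but 1 library, were at 1571, 1641 and 591 CPM in the warm mutants, again in the order of Cryab, at 980 to 1442 CPM in the cold mutants, at 2173 to 3969 CPM in warm wild-type mice and at 1495 to 1626 CPM in cold wild-type mice. White adipocyte markers in the warm mutants ran in the reverse order, at 8217, 6164 and 13368 CPM. Immediate early genes such as Fos, at 224, 303 and 217 CPM there, also had the order of Cryab. The part of any of these cell types in the level of Cryab was not tested.

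**Figure D2:**
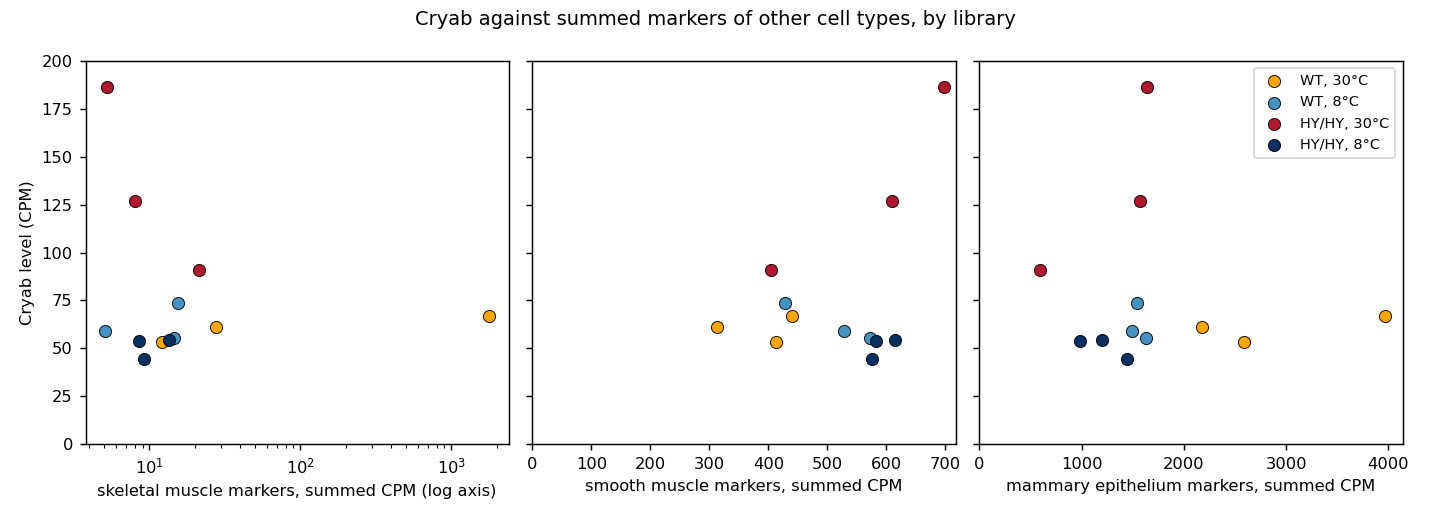
Cryab level in CPM (vertical axis) against the summed CPM of markers of skeletal muscle (log axis), smooth muscle and mammary epithelium (horizontal axes), with 1 point per library coloured by group. The library with 1791 CPM of skeletal muscle markers has 67.0 CPM of Cryab, and libraries with 575 to 615 CPM of smooth muscle markers have from 44.5 to 127 CPM of Cryab.

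Cryab (chr9:50745951-50756636) shares its place with Hspb2 (chr9:50751072-50752354), a small heat shock protein gene whose RefSeq span falls within that of Cryab. Hspb2 stood at 2.36, 2.02 and 2.13 CPM in warm and 1.56, 2.26 and 1.92 CPM in cold wild-type mice. In HY/HY mice it was at 2.17, 2.03 and 2.03 CPM when warm and at 1.36, 1.38 and 1.30 CPM when cold. The warm mutants thus had no more Hspb2 than the warm wild-type mice (log2 difference -0.06 ± 0.20; adjusted p = 0.91). By cold in HY/HY mice Hspb2 was lower, on 21, 22 and 16 counts against 56, 59 and 39 (log2 fold change -0.62, no test). The groups did not overlap, which held for 3032 of all 16540 genes in this contrast. Hspb2 was called in none of the tested contrasts. Counting both strands together, which leaves out pairs that fall on genes of both strands, left 23.8% to 44.6% of the Hspb2 counts and 99.8% to 100.5% of the Cryab counts.

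The genes whose log2 CPM followed Cryab most closely over the 12 libraries, among 9528 with a mean of at least 10 CPM, were Commd10 (Pearson r = 0.883), Tuba1a (0.875), Mapk8ip1 (0.848), Prdx6 (0.838) and Bmyc (0.832). Without wild-type replicate 2 at 30°C, 4 of these 5 remained and Rpl22l1 (0.859) took the place of Bmyc. Tuba1a, an alpha-tubulin, had means of 71.0 and 83.5 CPM in warm and cold wild-type mice and of 178 and 71.2 CPM in warm and cold HY/HY mice. Hspb7, with a mean under 10 CPM, was not compared. None of the other heat shock genes was close to Cryab: r was 0.281 for Hspb1, 0.234 for Hsf1 and 0.162 for Hspb8, and it was -0.493 for Hspb6. These values describe libraries that share groups and carry no test.

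The small heat shock proteins did not move as 1 block. Hspb1, an abundant member that binds actin filaments, was at 56.1, 71.5 and 72.1 CPM in warm and 64.6, 71.4 and 74.0 CPM in cold wild-type mice. The HY/HY libraries were at 55.9, 70.9 and 70.7 CPM when warm and at 65.2, 54.4 and 48.0 CPM when cold. All neighbouring groups overlapped, and the highest library had 1.54 times the level of the lowest, the smallest range of the 10 genes. The difference between genotypes at 8°C was -0.32 ± 0.14 (adjusted p = 0.21), and by cold in wild-type mice the log2 fold change was 0.07 ± 0.14 (adjusted p = 0.74), which turned to -0.26 with library totals.

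Hspb6, known as HSP20 and best known from smooth and heart muscle, was the only 1 of the 10 genes called by cold in wild-type mice, where 17.3% of all genes tested were called, 10.3% higher and 6.93% lower. Its level rose from 9.34, 20.9 and 14.9 CPM at 30°C to 25.3, 25.1 and 26.9 CPM at 8°C. All 3 cold libraries were above all 3 warm ones (log2 fold change 0.77 ± 0.25; adjusted p = 0.042). Without wild-type replicate 2 at 30°C, the muscle-rich library and the highest of the warm ones, the rise was 1.09 ± 0.23 (adjusted p = 0.012). The call was lost without any of wild-type replicates 1 or 3 at 30°C, of the 3 wild-type libraries at 8°C or of the 3 HY/HY libraries at 8°C, with library totals, and with only the wild-type libraries in the fit. Its adjusted p ranged from 0.0117 to 0.157 over all alternatives.

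In HY/HY mice Hspb6 was at 11.6, 10.4 and 17.0 CPM when warm and at 20.01, 18.3 and 21.4 CPM when cold (log2 fold change 0.61 ± 0.25, no test). These groups again did not overlap, which held for 3032 of all 16540 genes in this contrast. The cold responses of the genotypes differed by -0.16 ± 0.35 (95% interval -0.93 to 0.61; adjusted p = 0.87). At 8°C the genotypes did not overlap, which held for 35.4% of all genes. Their difference there was -0.38 ± 0.25 (adjusted p = 0.42; 0.0361 to 0.617 over the alternatives) and was not called. At 30°C it was -0.22 ± 0.25 (adjusted p = 0.69). Smooth muscle markers were higher on average in the cold wild-type libraries, at 529, 572 and 428 CPM against 413, 439 and 313 CPM, and their part in the rise of Hspb6 was not tested.

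Hspb8, which works with the co-chaperone Bag3 in clearing misfolded proteins, ran higher in the mutants. In warm wild-type mice it was at 68.6, 70.4 and 88.5 CPM and in warm HY/HY mice at 86.5, 149 and 174 CPM. At 8°C it was at 106, 105 and 115 CPM in wild-type and at 153, 127 and 155 CPM in HY/HY mice. The genotypes overlapped by 1 library at 30°C and did not overlap at 8°C. The difference was 0.85 ± 0.21 at 30°C (adjusted p = 0.072) and 0.42 ± 0.21 at 8°C (adjusted p = 0.27), so neither was called.

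At 30°C the result for Hspb8 depended on 1 library and on the method. Without HY/HY replicate 1, the low one, the difference was 1.09 (adjusted p = 0.0082), and it was called with DESeq2 (0.0078), without a filter on low counts (0.0197) and with the replicate number as a block (0.0389). Without wild-type replicate 2 it was 0.80 ± 0.25 (adjusted p = 0.19), without HY/HY replicate 3 it was 0.64 ± 0.20 (adjusted p = 0.19), and over all alternatives the adjusted p ranged from 0.00781 to 0.322. By cold, the level in wild-type mice rose in all 3 libraries above the warm ones, by 0.52 ± 0.21 (adjusted p = 0.092; 0.0144 to 0.359 over the alternatives), which is under the fold limit. In HY/HY mice the change was 0.09 ± 0.21, and the difference between the responses was -0.43 ± 0.30 (adjusted p = 0.53).

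Hspb7, the cardiovascular small heat shock protein, was near the lower limit of detection, at 0.223 to 2.85 CPM. Its highest value belonged to wild-type replicate 2 at 30°C, the library rich in skeletal muscle markers. By cold in wild-type mice its log2 fold change was -0.69 ± 0.79, and 0.45 ± 0.80 without that library, so that no direction could be read (adjusted p = 0.55 and 0.74).

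The inducible HSP70 genes Hspa1a (chr17:34969359-34972156) and Hspa1b (chr17:34956429-34959238) encode almost the same protein. Of the 50-base stretches of the Hspa1a transcript, 59.44% also occur in Hspa1b, and 62.09% of those of Hspa1b occur in Hspa1a. Read pairs that align to several places were not counted, so both levels are too low by an unknown amount and how the counts divide between the genes is uncertain. The ratio of Hspa1b to Hspa1a counts stayed between 3.22 and 5.45 in the 12 libraries. The choice of strand mattered for Hspa1a: counting both strands together left 44.3% to 53.9% of its counts and 100% to 100.5% of those of Hspa1b.

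Hspa1a was at 23.7, 17.3 and 11.3 CPM in warm and 10.9, 7.32 and 8.21 CPM in cold wild-type mice. Hspa1b was at 119, 76.2 and 47.8 CPM in warm and 35.2, 38.5 and 36.6 CPM in cold wild-type mice. For both genes all cold libraries were below all warm ones, but the warm ones were spread widely. The log2 fold change by cold was -0.99 ± 0.39 for Hspa1a (adjusted p = 0.086) and -1.14 ± 0.41 for Hspa1b (adjusted p = 0.063). With the counts of both genes summed, an alternative chosen after seeing the data, it was -1.11 ± 0.40 (adjusted p = 0.063).

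Neither gene was called, and the outcome depended on the method and on single libraries. Both were called with library totals (adjusted p = 0.0323 and 0.0237), without a filter on low counts (0.0495 and 0.0242) and with only the wild-type libraries in the fit (0.0356 and 0.0245), and Hspa1b also with DESeq2 (0.0284) and with the replicate number as a block (0.0261). Without wild-type replicate 2 at 30°C the changes were -0.99 ± 0.44 (adjusted p = 0.16) and -1.18 ± 0.46 (adjusted p = 0.11). Without wild-type replicate 1, the highest library, they were -0.70 (adjusted p = 0.265) and -0.75 (0.231). Without HY/HY replicate 3 at 30°C, the lowest library, which enters this contrast only through the scaling and the estimate of the spread, both were called (adjusted p = 0.0121 and 0.0140), and both were called without wild-type replicate 3 at 30°C (0.0467 and 0.0297). Over all alternatives the adjusted p ranged from 0.0121 to 0.265 for Hspa1a and from 0.014 to 0.231 for Hspa1b.

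In warm HY/HY mice Hspa1a was at 12.4, 14.7 and 3.95 CPM and Hspa1b at 55.4, 68.0 and 19.4 CPM. In cold ones they were at 8.29, 9.19 and 8.12 CPM and at 45.1, 48.8 and 27.6 CPM. The groups overlapped for both genes, with changes by cold of -0.28 ± 0.39 and -0.23 ± 0.41, and these turned positive without replicate 2 of the warm mutants, at 0.05 and 0.12. The difference between the genotypes in the response to cold was 0.70 ± 0.55 for Hspa1a (adjusted p = 0.59) and 0.90 ± 0.58 for Hspa1b (adjusted p = 0.49). At 30°C the mutants differed from wild-type mice by -0.75 ± 0.38 (adjusted p = 0.32) and -0.76 ± 0.40 (adjusted p = 0.34). Without HY/HY replicate 3 these differences were -0.36 ± 0.26 (adjusted p = 0.61) and -0.39 ± 0.32 (adjusted p = 0.67), and without wild-type replicate 2 they were -0.75 ± 0.43 (adjusted p = 0.47) and -0.80 ± 0.46 (adjusted p = 0.46). The changes by cold in HY/HY mice were -0.66 and -0.60 without HY/HY replicate 3 at 30°C.

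**Figure D3:**
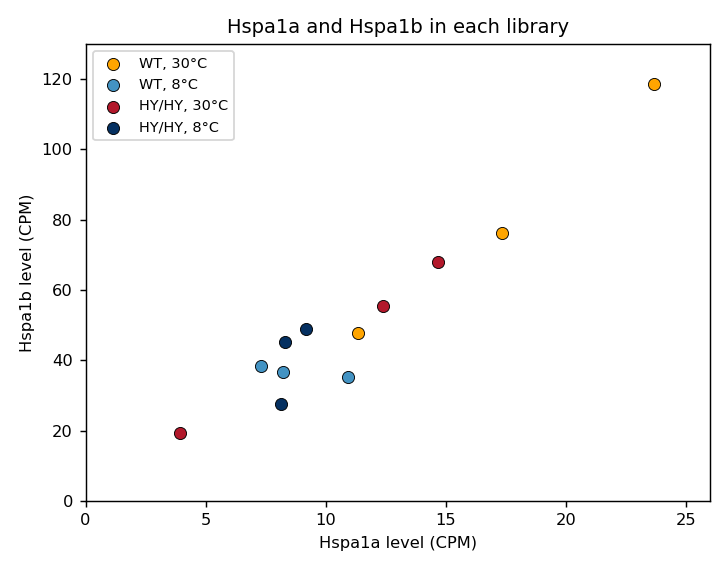
Level of Hspa1b (vertical axis, CPM) against Hspa1a (horizontal axis, CPM), with 1 point per library coloured by group. The points run along 1 line from HY/HY replicate 3 at 30°C (3.95 and 19.4 CPM) to wild-type replicate 1 at 30°C (23.7 and 119 CPM), and the cold libraries of both genotypes lie in the lower part of the range.

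Over the 12 libraries the log2 levels of Hspa1a and Hspa1b had r = 0.938, and those of Hsph1 and Hspa8 had r = 0.902. Hspb8 ran opposite to Hspa1a (r = -0.749) and to Hspa1b (r = -0.712). Hsf1 was related to Hspa1b with r = 0.623. The libraries share groups, and Hspa1a and Hspa1b share sequence, so these values are descriptions.

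Hspa8, the constitutive HSC70 of every cell, was by far the most abundant of the 10 genes per length, with a mean of 460 CPM per kilobase of transcript, ahead of Hspb1 with 69.4, Cryab with 65.2 and Hspb8 with 64.1. At the other end were Hspa1a with 3.85 and Hspb7 with 0.356 CPM per kilobase. In wild-type mice Hspa8 was at 1052, 736 and 1109 CPM when warm and at 1312, 1261 and 1659.7 CPM when cold. In HY/HY mice it was at 565, 1264 and 953 CPM when warm and at 1142, 1168 and 987 CPM when cold. All cold wild-type libraries were above all warm ones, yet the difference of 0.55 ± 0.26 was not called (adjusted p = 0.15), and it was 0.39 ± 0.28 without wild-type replicate 2 at 30°C (adjusted p = 0.38). The genotypes did not overlap at 8°C, where they differed by -0.36 ± 0.26 (adjusted p = 0.46).

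Hsph1, the exchange factor for HSP70, was at 30.9, 25.2 and 30.8 CPM in warm and 40.6, 33.0 and 39.9 CPM in cold wild-type mice. Its level in HY/HY mice was 16.04, 37.6 and 26.2 CPM when warm and 43.6, 37.8 and 30.4 CPM when cold. In wild-type mice the cold libraries were all above the warm ones (log2 fold change 0.39 ± 0.25; adjusted p = 0.27), and the mutants' groups overlapped (0.48 ± 0.25, no test). The responses differed by 0.10 ± 0.35 (adjusted p = 0.92).

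Hsf1 itself was at 38.8, 38.0 and 43.7 CPM in warm and at 29.9, 31.2 and 32.9 CPM in cold wild-type mice. The 3 cold libraries lay below the 3 warm ones, with a log2 fold change of -0.36 ± 0.14 (adjusted p = 0.086; 0.0105 to 0.219 over the alternatives). The mutants had 30.1, 38.2 and 29.0 CPM when warm and 33.0, 26.1 and 23.4 CPM when cold. The change by cold was -0.24 ± 0.14 there, and the responses differed by 0.12 ± 0.20 (adjusted p = 0.83). RNA levels do not show the activity of Hsf1, which is set mainly by the state of the protein.

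**Figure D4:**
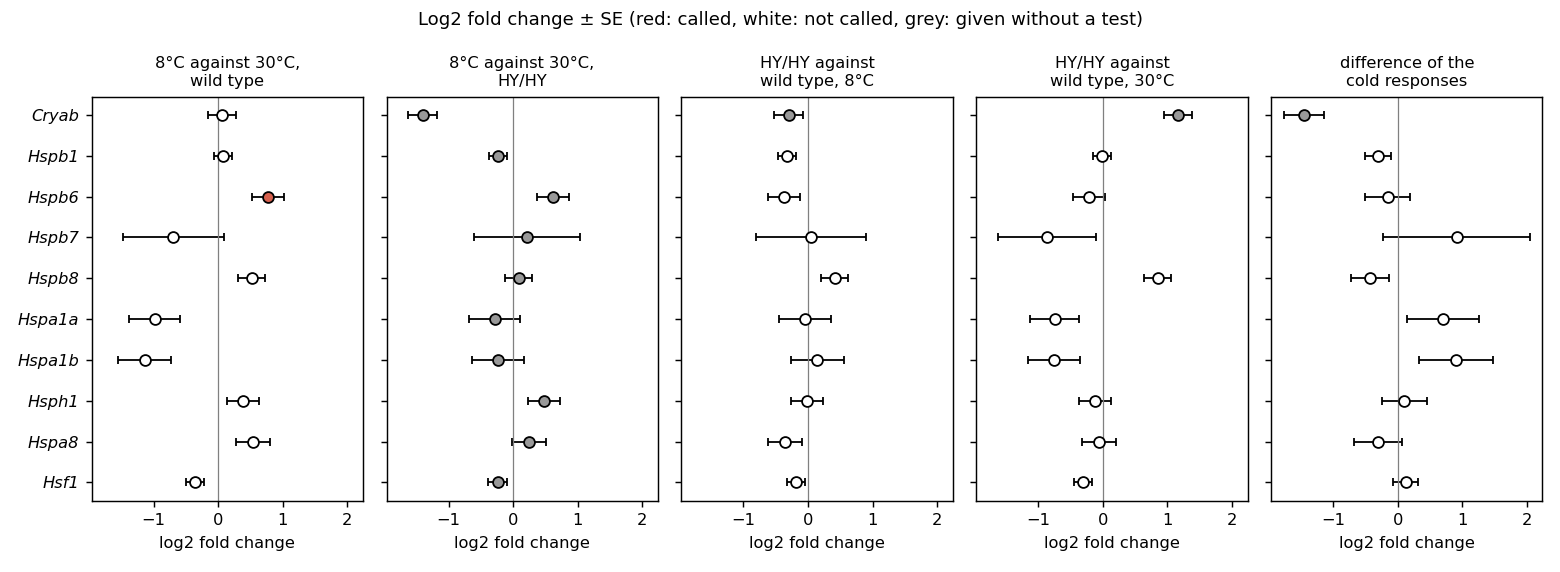
Log2 fold change ± SE (horizontal axis) of the 10 genes in the cold response of each genotype, in the genotype difference at each temperature and in the difference between the cold responses. Red marks the 1 called gene (Hspb6, 0.77 in cold wild-type mice), white a gene tested and not called, and grey a value given without a test, among them Cryab at -1.40 in cold HY/HY mice.

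Counted over the tested genes, 1 of 10 was called by cold in wild-type mice against 17.3% of all genes. An unadjusted p under 0.05 in edgeR was held by 5 of 10, against 6351 of all 16540 genes. The groups did not overlap for 7 of the 10, whereas they did not overlap for 43.4% of all genes. The median log2 fold change was 0.06 over the 10 genes and -0.07 over all genes. At 8°C, 0 of 9 were called between the genotypes against 5.93% of all genes, and 0 were called with DESeq2. An unadjusted p under 0.05 in edgeR was held by 1 of 9, against 3700 of all 16540 genes. The groups did not overlap for 3 of 9 there, against 35.4% of all genes. At 30°C, 0 of 9 were called against 1.00% of all genes, and 1 was called with DESeq2. An unadjusted p under 0.05 in edgeR was held by 1 of 9, against 3083 of all 16540 genes. The groups did not overlap for 0 of 9, against 18.3% of all genes. For the difference between the cold responses, called at an adjusted p under 0.05 alone, 0 of 9 were called against 2.24% of all genes. With DESeq2, 0 were called. An unadjusted p under 0.05 in edgeR was held by 0 of 9, against 2481 of all 16540 genes.

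Of the other chaperone genes of the cytosol, 52 tested of 57 listed in 7 groups, 2 were called higher and 1 lower by cold in wild-type mice, against 10.3% and 6.93% of all genes tested. Their median log2 fold change was 0.03, and that of all genes was -0.07. Hspa4l, an HSP110 relative of Hsph1, rose from 11.9, 12.6 and 11.4 CPM to 20.7, 20.1 and 22.1 CPM (0.81 ± 0.12; adjusted p = 8.3e-04). Bag1, which releases clients from HSP70, rose from 185, 206 and 261 CPM to 376, 388 and 371 CPM (0.80 ± 0.14; adjusted p = 0.0023). With library totals in place of TMM, Hspa4l (0.46) and Bag1 (0.47) were under the fold limit and not called. The median of all genes was then -0.41. Hspa2, an HSP70 best known from the testis, fell from 14.8, 14.5 and 11.1 CPM to 6.91, 9.51 and 8.02 CPM (-0.73 ± 0.23; adjusted p = 0.041). The fall of Hspa2 was not called without wild-type replicate 2 at 30°C (-0.67 ± 0.27; adjusted p = 0.11), without wild-type replicate 1 at 30°C, without any of the wild-type libraries at 8°C or without HY/HY replicate 2 at 8°C.

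Several well-known partners of HSP70 and targets of Hsf1 did not pass. Bag3, the partner of Hspb8, was at 60.1 to 64.4 CPM in warm and 54.0 to 68.6 CPM in cold wild-type mice (0.01 ± 0.10; adjusted p = 0.96). Dnajb1, the HSP40 that hands clients to HSP70, had a change of 0.04 ± 0.14 (adjusted p = 0.85). Hsp90aa1, the inducible HSP90, had all cold libraries above the warm ones with an adjusted p of 0.039, yet at 0.40 ± 0.13 it was under the fold limit, and Hsp90ab1, the constitutive one, had -0.24 ± 0.15 (adjusted p = 0.25). Hsf2, a relative of Hsf1, had -0.12 ± 0.13 (adjusted p = 0.54). The 13 genes of HSP90 and its co-chaperones, the 11 J-domain genes, the 8 TRiC subunits and the 3 tested of 4 further heat shock factors and regulators held 0 called genes in wild-type mice in edgeR, against 17.3% of all genes. In these lists 4, 3, 0 and 0 had an unadjusted p under 0.05, against 6351 of all 16540 genes.

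Of 7 heat shock genes of the mitochondria and endoplasmic reticulum, 3 were called higher in cold wild-type mice and 0 lower, against 10.3% and 6.93% of all genes tested, with a median of 0.62. The 3 called genes act in the mitochondrial matrix, and Trap1, the mitochondrial HSP90, was not called (0.62 ± 0.22; adjusted p = 0.063). Hspa9, the mitochondrial HSP70, rose from 439, 419 and 499 CPM to 1156, 1296 and 1279 CPM (1.46 ± 0.16; adjusted p = 1.2e-04). Hspd1, the chaperonin HSP60, rose by 1.23 ± 0.19 (adjusted p = 8.9e-04), and its lid Hspe1 rose by 0.85 ± 0.13 (adjusted p = 7.3e-04). With library totals Hspe1 was under the fold limit (0.52) and not called. Hspa5, the HSP70 of the endoplasmic reticulum, was at 302 to 392 CPM in warm and 310 to 402 CPM in cold wild-type mice.

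In HY/HY mice Hspa9 was at 443, 630 and 640.1 CPM when warm and 700.4, 761 and 812 CPM when cold. At 8°C it was lower than in wild-type mice (-0.71 ± 0.16; adjusted p = 0.022), the 1 called there of 59 listed chaperone genes tested, against 5.93% of all genes. That call was lost without wild-type replicate 2 or 3 or any of the HY/HY replicates at 8°C. Hspa9 was also the 1 of 59 called in edgeR for the difference between the cold responses (-1.05 ± 0.23; adjusted p = 0.038), against 2.24% of all genes. The difference in response was -0.999 ± 0.252 without wild-type replicate 2 at 30°C (adjusted p = 0.10) and -0.96 ± 0.22 without HY/HY replicate 3 at 30°C (adjusted p = 0.057), and neither was called. The call for the difference in response was lost in 10 of 19 alternatives, and all 10 were fits that left out 1 library. Among the fits that left out 1 library, it was kept only without wild-type replicate 3 or HY/HY replicate 1 at 30°C. At 30°C 0 of the 59 were called between the genotypes in edgeR, against 1.00% of all genes, and 1 was called with DESeq2. An unadjusted p under 0.05 in edgeR was held by 6 of the 59, against 3083 of all 16540 genes. The thermogenic markers, at 8291 to 9189 CPM in cold wild-type and 516 to 1653 CPM in cold mutant mice, differed along with Hspa9, and their part in it was not tested.

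**Figure D5:**
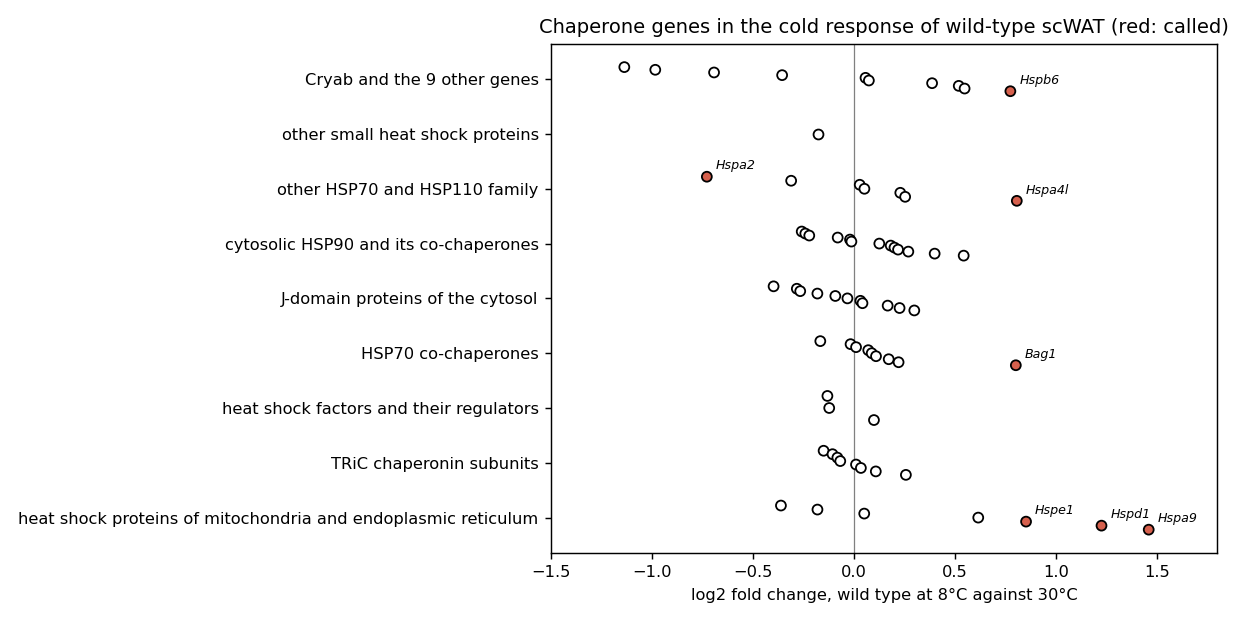
Log2 fold change by cold in wild-type mice (horizontal axis) of the 10 heat shock genes and of 59 other chaperone genes in 8 lists (vertical axis), with 1 point per gene and the called ones in red with their names. The called genes are Hspb6 (0.77), Hspa4l (0.81), Hspa2 (-0.73), Bag1 (0.80), Hspe1 (0.85), Hspd1 (1.23) and Hspa9 (1.46).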

How the data were processed

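Per the study's methods, the authors used fastp for trimming the paired 50-base reads, and STAR for alignment (mm10, GENCODE M25). The deposited files hold raw read pair counts per gene without regard to strand and by strand, and their submitters' processing notes also name FastQC and StringTie. The sense-strand counts were used. Of the read pairs, 55.8% to 63.5% stood in 4 entries that name no gene and were left out. Of 55401 IDs, 32589 were matched to a symbol.

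The counts were fitted with edgeR 4.0.16 (R 4.3.3), using filterByExpr, TMM, a quasi-likelihood fit of 1 mean per group to all 12 libraries, and two-sided p-values adjusted by Benjamini and Hochberg over 16540 genes. The common biological coefficient of variation was 20.7%. A call needed a fold change past 1.5 upwards or 0.67 downwards besides an adjusted p under 0.05, and for the difference in responses an adjusted p alone. On simulated data for the cold response in wild-type mice, on 16540 genes, the fit called 52 of 100 genes changed 2-fold and 91 of 100 changed 4-fold. CPM per kilobase used the longest coding transcript of GENCODE M1.

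The genes and lists were chosen with earlier results of these data known. Named are the 10 genes, Hspb2, Bag3, Dnajb1, Hsp90aa1, Hsp90ab1 and Hsf2, up to 3 called genes per list and comparison with the largest change, and the 5 genes with the highest r with Cryab. Hspa5, Trap1 and the genes called lower in cold HY/HY mice were named outside this rule after their values were seen. Tests planned for Cryab between the genotypes were not used, because those comparisons share libraries with the one that picked it. Alternatives were DESeq2 1.42.0, library totals, other filters, both strands, fewer libraries, no mitochondrial DNA genes and the replicate number as a block. Same-numbered libraries had correlated deviations above 0.1 in every pair only for cold in HY/HY mice (0.112 to 0.303), so the numbers were not taken to pair the samples.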

Additional observations from a re-analysis of the deposited data

Results flagged for a closer look

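Hspa9, the mitochondrial HSP70, was the only listed chaperone gene called in edgeR in the test of the difference between the cold responses. The difference was -1.05 on the log2 scale (HY/HY minus wild type; adjusted p = 0.038 in edgeR). The fitted change by cold in wild-type mice was 1.46. The call was lost in 10 of 19 alternatives, each of which left out 1 library, and the adjusted p ranged up to 0.118.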

How the results depend on the processing

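Of 970 recomputed values for single genes, 907 were counted as the same and 35 as reversed. A further 17 newly passed the threshold, 10 no longer did and 1 moved. A tested value was the same if it kept its direction and its side of the threshold. A value without a test was the same, whatever its sign, if it shifted by less than the SD of log2 CPM within groups. The 1 that moved shifted by more. Some untested values among the 907 thus changed sign, such as Hspb8 by cold in HY/HY mice (0.09 to -0.15). Library totals in place of TMM shifted the median of all genes from -0.07 to -0.41 for cold in wild-type mice, from -0.01 to -0.15 for cold in HY/HY mice, from 0.01 to 0.15 between genotypes at 8°C and from 0.04 to 0.25 for the difference in responses. Calls by cold in wild-type mice then split into 1057 higher and 4144 lower in place of 1707 and 1147, into 0 and 3 of the 10 genes in place of 1 and 0, and into 2 and 8 of the listed chaperones in place of 5 and 1. With library totals the sign turned for Cryab (-0.28) and Hspb1 (-0.26) by cold in wild-type mice, for Hspa1a (0.087) and Hsph1 (0.12) between genotypes at 8°C and for the response difference of Hspb6 (0.075). It turned for Hspb1 at 30°C without a filter (0.0035) and with only the compared libraries (0.011), and for Hspa1a at 8°C with both strands (0.043). Beyond the construction of each alternative, the cause was not tested.

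The number of the 10 genes called by cold in wild-type mice (1) became 3 with library totals, 2 with DESeq2, 3 without a filter, 2 with only the compared libraries, 2 with the replicate block and 0 to 3 with 1 library left out. At 30°C between genotypes (0) it became 1 with DESeq2, 1 without a filter, 1 with the replicate block, each time Hspb8, and 0 to 1 with 1 library left out. Between genotypes at 8°C and for the difference in responses it stayed at 0 in every alternative. Calls among the 59 listed chaperone genes by cold in wild-type mice (6) became 10 with library totals, 7 with DESeq2, without a filter, with only the compared libraries and with the replicate block, where Trap1 was added, and 5 to 8 with 1 library left out. Between genotypes at 8°C (1) they became 3 with library totals, 2 with only the compared libraries and 0 to 2 with 1 library left out. At 30°C (0) they became 1 with DESeq2, without a filter and with the replicate block, and 0 to 1 with 1 library left out. For the difference in responses (1) they became 3 with DESeq2, 2 with at least 10 counts in every library and 0 to 2 with 1 library left out. The replicate block also left Hspb6 called by cold in wild-type mice (0.80, adjusted p = 0.0312).

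Leaving out 1 library at a time turned the sign of several log2 fold changes. By cold in wild-type mice the ranges were -0.075 to 0.15 for Cryab, -0.034 to 0.14 for Hspb1 and -1.04 to 0.45 for Hspb7. By cold in HY/HY mice they were -0.27 to 0.93 for Hspb7, -0.15 to 0.30 for Hspb8, -0.66 to 0.05 for Hspa1a, -0.60 to 0.12 for Hspa1b and -0.011 to 0.54 for Hspa8. Between genotypes at 8°C they were -0.43 to 0.43 for Hspb7, -0.16 to 0.14 for Hspa1a, -0.013 to 0.36 for Hspa1b and -0.15 to 0.11 for Hsph1. At 30°C they were -0.12 to 0.090 for Hspb1, -0.47 to 0.10 for Hspb6, -1.57 to 0.27 for Hspb7, -0.46 to 0.15 for Hsph1 and -0.35 to 0.20 for Hspa8. For the difference in responses they were -0.48 to 0.090 for Hspb6, -0.23 to 1.62 for Hspb7, -0.17 to 0.43 for Hsph1 and -0.041 to 0.25 for Hsf1. With Hspb7 at 0.223 to 2.85 CPM, depth limits what can be said of it.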
